A study of Mus musculus with 11 samples.

Results

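The genes described here encode the motors that carry cargo along microtubules: kinesins, cytoplasmic dynein and its cofactor complex dynactin. They were taken by gene symbol as the numbered Kif genes, Klc1 to Klc4, the Dync1 and Dync2 genes, the Dynl light chain genes and Dctn1 to Dctn6. The symbol rule uses no measured value, but this gene set was chosen with earlier results of these data known. There were 62 such genes among 32531, made up of 37 Kif genes, 4 kinesin light chain genes, 5 chains of dynein-1, 2 of dynein-2, 8 dynein light chains and 6 dynactin subunits. RNA was measured by TRAP-seq (translating ribosome affinity purification and sequencing). The mice were adults of the DU9 line, Glt25d2-EGFP/Rpl10a, in which regulatory DNA of the gene Glt25d2 (current symbol Colgalt2) drives an EGFP-tagged ribosomal protein. All 11 libraries came from this 1 transgenic line, in a study of short-access intravenous self-administration. Of the 9 immunopurified (IP) libraries, which hold RNA pulled down with the tagged ribosomes, 3 were from saline self-administration, 3 from cocaine self-administration and 3 from yoked controls, numbered 1 to 3 within each treatment. The other two were 1 input library of total RNA from the saline group and 1 unbound library, RNA left after the pull-down, from the cocaine group. The sources used here do not give what the yoked animals received, the exact age, or whether a library was 1 animal or a pool. The p-values therefore measure only the spread between libraries.

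Kinesins mostly walk toward the plus ends of microtubules, which in axons point away from the cell body, and dynein walks toward the minus ends. Kinesin-1, built of Kif5 heavy chains and Klc light chains, moves mitochondria, vesicles and proteins outward, while kinesin-3 motors such as Kif1a carry precursors of synaptic and dense-core vesicles. Dynein-1, held to its cargo and made processive by dynactin and by adaptor proteins, brings endosomes, autophagosomes and signalling complexes back. Pyramidal tract neurons of cortical layer 5 send axons to the brain stem and spinal cord and depend on such transport over long distances.

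Gene counts per library ran from 20926712 in the unbound library to 53862653 in saline IP replicate 1. The tissue label reads cerebral cortex, whereas the extraction text names the whole striatum, and markers of layer 5 and of striatal projection neurons were both present in every IP library. Colgalt2 stood at 136, 137 and 150 CPM (read counts scaled to a common library size) in the IP libraries numbered 1 and at 77.3 to 104 in the IP libraries numbered 2 and 3, against 81.5 CPM in the input and 74.5 CPM among unbound RNA. The IP libraries numbered 1 thus stood apart in all 3 treatments, and results below are given by replicate number first. In the labels each treatment was run on its own sequencing lane and each replicate number has its own index sequence, so treatment and lane, and number and index, cannot be told apart. The input and the unbound library each came from a lane of its own. Other measures of the libraries moved with number as well: reads outside annotated genes were 6.28% to 7.29% of entries in the IP libraries numbered 1 and 10.3% to 15.5% in the others, and 18695 to 18917 genes were detected against 19639 to 20383. Cocaine IP replicate 1 had the highest share of reads aligned to several places (47.0%) and of the ribosomal RNA precursor Rn45s (8.0% of gene counts). The part of these measures in the results was not tested.

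Of the 62 genes, 56 had at least 1 count in all 11 libraries and 55 passed the filter on low counts. The 7 that did not pass were Kif12 (0 counts in every library), Kif2b (1 count, in saline IP replicate 2), Kif2c (0 to 11 counts), Kif18b (0 to 9), Klc3 (0 to 12), Dynlt1b (0 to 5) and Dynlt1f (2 to 7). Kif2c and Kif18b work on the mitotic spindle. Dynlt1b and Dynlt1f, with Dynlt1a, are near-identical copies between which reads may have been split or lost, so their values are uncertain.

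Per exonic length, the motor RNA with the highest mean over the 9 IP libraries was that of Kif5c, a heavy chain of kinesin-1 found mainly in neurons, at 234 ± 66.6 RPKM (CPM per kilobase of exon; mean ± SD over the 9 IP libraries). Next came Dynlrb1, a roadblock-type dynein light chain, at 218 ± 70.0 RPKM, and Dynlt3, a dynein light chain of the Tctex type, at 186 ± 38.1 RPKM. Dctn3, the smallest subunit of the dynactin shoulder, had 181 ± 89.5 RPKM, the neuronal heavy chain Kif5a 153 ± 60.3 RPKM and the kinesin-1 light chain Klc1 145 ± 14.9 RPKM. Neighbours in this order differed by less than their SDs. Klc1 had the smallest SD of the 6. The order differed by replicate number. In number 1 Dynlrb1 (299 ± 62.2 RPKM, SD, n = 3), Dctn3 (274 ± 110) and Dynlt3 (231 ± 28.5) led, with Klc1 at 160 ± 3.80 and Kif5c at 156 ± 40.6, while in numbers 2 and 3 Kif5c (273 ± 30.5 RPKM, SD, n = 6) led Kif5a (191 ± 24.1) and Dynlrb1 (177 ± 17.9). The motor subunit of dynein, Dync1h1, stood at 6.43 RPKM and the large dynactin subunit Dctn1, which binds microtubules, at 9.43 RPKM, below Dynll1, Dynll2, Dynlrb1 and Dynlt3. The other 4 dynein light chain genes stood lower than Dync1h1, at 0.029 to 1.36 RPKM.

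**Figure D1:**
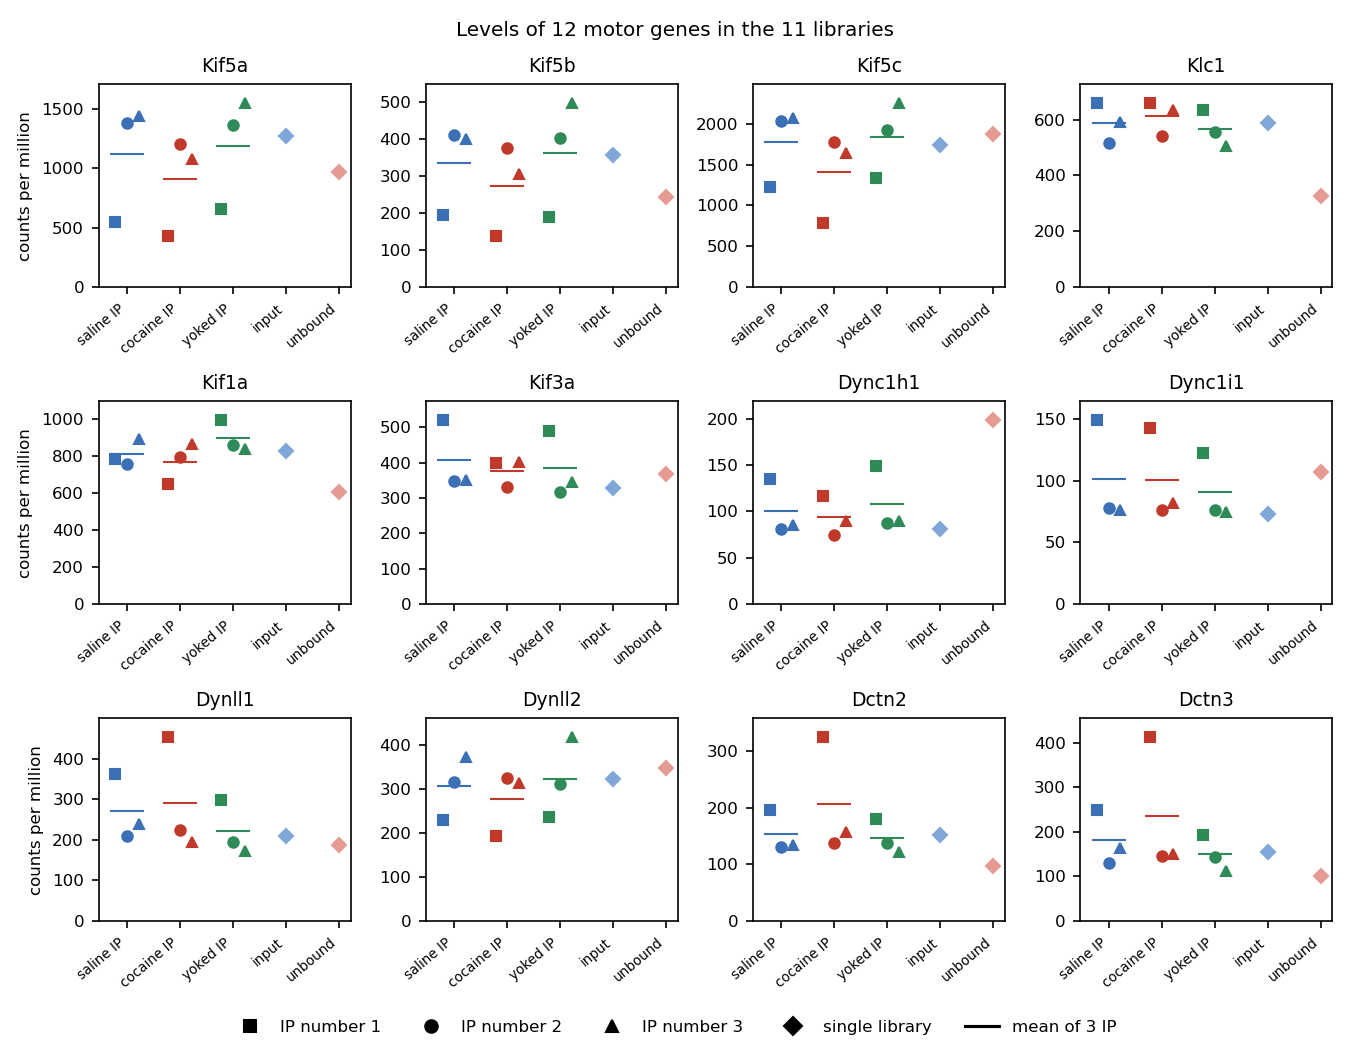
Level in CPM (vertical axes, linear, from 0) of 12 motor genes in each of the 11 libraries, by treatment and fraction, with the replicate number as the symbol and the mean of 3 IP libraries as a line. In each treatment the IP library numbered 1 lies lowest for Kif5a, Kif5b and Kif5c and highest for Dctn2 and Dctn3.

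The largest differences among the motor genes followed replicate number. In the libraries numbered 1 the kinesin-1 heavy chains and most kinesin-3 genes were lower, and the dynactin subunits and most dynein-1 chains were higher, than in numbers 2 and 3. Of 55 genes tested, 16 were higher and 13 lower at an adjusted p under 0.05 (edgeR's quasi-likelihood test with treatment as a term, Benjamini-Hochberg adjustment over 16417 genes). Over all genes tested 27.6% were higher and 27.7% lower, so the share of motor genes that differed was close to the background. The split by role was uneven: all 6 dynactin genes and 4 of 5 dynein-1 chains rose, whereas 11 of 33 Kif genes fell and 1 rose. The median log2 difference was 0.69 for dynactin, 0.67 for dynein-1, -1.18 for the kinesin-1 heavy chains and -0.91 for kinesin-3, against 0.01 over all genes. Each of the 16 that rose and the 13 that fell did so in all 3 treatments. Separation of libraries was counted in CPM scaled over the 9 IP libraries alone. All 3 libraries numbered 1 lay above the other 6 for 16 motor genes and below them for 13 (22.4% and 24.1% of all genes). In the CPM printed here, scaled over all 11 libraries, the sets of Dctn1, Klc1 and Kif3a overlapped slightly. These are bulk libraries, in which fewer cells of a type and less RNA per cell cannot be told apart.

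Kif5a, also made mainly in neurons, had 543, 432 and 656 CPM in the saline, cocaine and yoked libraries numbered 1, and 1082 to 1552 CPM with a median of 1373 in the 6 libraries numbered 2 and 3. The 2 sets did not overlap, and the lowest library of the second was above the highest of the first by a wide margin. The log2 difference was -1.29 ± 0.11 (SE, adjusted p = 4.13e-07, edgeR). Kif5b, the heavy chain made in most cell types, had 195, 139 and 190 CPM in number 1 against 306 to 498 CPM with a median of 401 elsewhere (-1.18 ± 0.12, adjusted p = 1.73e-06, edgeR). Kif5c had 1229, 785 and 1331 CPM against 1644 to 2256 CPM with a median of 1984 (-0.82 ± 0.12, adjusted p = 4.62e-05, edgeR). All 3 heavy chain genes were thus lower without overlap, and cocaine replicate 1 held the lowest value of each. The input, at 1270 CPM for Kif5a, 358 for Kif5b and 1734 for Kif5c, lay within the range of numbers 2 and 3 for each gene.

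The light chains, which bind cargo and hold the heavy chains inactive without it, did not follow the heavy chains. Klc1 had 660, 660 and 633 CPM in number 1 and 506 to 634 CPM with a median of 548 in numbers 2 and 3, a log2 difference of 0.24 ± 0.10 at the edge of the threshold (adjusted p = 0.0494, edgeR). In these CPM the highest of the second set was just above the lowest of the first. The call was lost with DESeq2-type size factors, where the difference was 0.22, and with no filter on low counts. It was also lost without any 1 of 7 IP libraries, all but cocaine replicate 1 and yoked replicate 2 (0.21 to 0.26). Klc2 had 133, 137 and 138 CPM in number 1 and 123 to 141 CPM elsewhere, a log2 difference of 0.10 that did not pass. The summed CPM of the heavy chains was 2.45, 1.67 and 2.79 times that of the light chains in number 1 of saline, cocaine and yoked, and 3.87 to 6.75 times in numbers 2 and 3. These sums are not corrected for length, so the ratio serves only to compare libraries.

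All 6 dynactin genes of the rule rose. Dctn2 (dynamitin), whose excess is known to break the complex apart, had 195, 326 and 180 CPM in number 1 and 123 to 158 CPM with a median of 136 elsewhere. The sets did not overlap, and cocaine replicate 1 was far above the other two (0.75 ± 0.12, adjusted p = 0.000146, edgeR). Dctn3 had 250, 413 and 194 CPM in number 1 against 112 to 163 CPM with a median of 144, again with cocaine replicate 1 highest (0.99 ± 0.15, adjusted p = 6.59e-05, edgeR). Within treatments, number 1 was above the mean of numbers 2 and 3 by 1.51 (log2) for Dctn3 in cocaine, 0.78 in saline and 0.62 in yoked. Dctn4, Dctn5 and Dctn6, subunits of the pointed end that helps to choose cargo, rose by 0.82, 0.63 and 0.60 on the log2 scale. Dctn1 had 66.6, 65.3 and 73.6 CPM in number 1 and 52.9 to 65.8 CPM elsewhere, and its difference of 0.27 ± 0.10 was near the threshold (adjusted p = 0.0374, edgeR). DESeq2 did not call Dctn1, at 0.24, and edgeR with DESeq2-type size factors did not either. Nor did edgeR without any 1 of 7 IP libraries, all but cocaine replicates 1 and 3 (0.18 to 0.29).

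The promoters of 4 members are shown because 2 genes whose RNA moved in opposite directions, Kif5c (lower in number 1) and Dctn3 (higher), both hold a full cyclic AMP response element, TGACGTCA, which reads the same on both strands. The genes and the motif were picked after their values were seen. Each line gives the 250 bases before the RefSeq start on the gene's own strand (GRCm38.p6, the build of mm10), with the element in capitals. Kif5c (chr2:49619036-49619285, plus strand) and Klc1 (chr12:111758618-111758867, plus strand) hold it 18 and 25 bases before the start, and Dctn3 (chr4:41723164-41723413, minus strand) 73 bases before it. Dctn2 (chr10:127266012-127266261, plus strand) has no match in this window.
Kif5c: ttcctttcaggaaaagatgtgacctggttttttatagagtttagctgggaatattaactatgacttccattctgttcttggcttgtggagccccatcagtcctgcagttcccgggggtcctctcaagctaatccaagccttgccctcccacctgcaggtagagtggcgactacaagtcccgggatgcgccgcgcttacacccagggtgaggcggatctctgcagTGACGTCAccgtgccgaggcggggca
Klc1: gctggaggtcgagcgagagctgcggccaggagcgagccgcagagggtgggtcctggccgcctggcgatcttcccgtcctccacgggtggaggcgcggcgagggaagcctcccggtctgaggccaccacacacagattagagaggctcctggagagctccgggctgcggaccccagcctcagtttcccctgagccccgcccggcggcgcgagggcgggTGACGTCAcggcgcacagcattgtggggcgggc
Dctn3: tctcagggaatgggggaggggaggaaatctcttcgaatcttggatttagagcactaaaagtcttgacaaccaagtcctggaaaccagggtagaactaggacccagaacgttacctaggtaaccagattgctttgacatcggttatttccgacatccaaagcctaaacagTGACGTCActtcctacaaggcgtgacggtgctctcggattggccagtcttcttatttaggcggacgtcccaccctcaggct
Dctn2: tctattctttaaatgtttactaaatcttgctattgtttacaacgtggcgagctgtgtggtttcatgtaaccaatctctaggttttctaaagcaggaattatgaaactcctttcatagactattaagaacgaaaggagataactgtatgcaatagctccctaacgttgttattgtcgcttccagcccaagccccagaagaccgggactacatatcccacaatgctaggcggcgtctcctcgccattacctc

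The element was present in 4 of 48 members found in the promoter table (8.33%) and in 478 of 27025 genes (1.77%). The fourth was Kif17. Their log2 differences by replicate number ran from -0.82 (Kif5c) over 0.23 (Kif17, not called) and 0.24 (Klc1) to 0.99 (Dctn3), so genes with the element did not move together. The GC box GGGCGG was found on either strand in 31 of 48 members (64.6%) and in 35.4% of all genes, and CCAAT in 21 of 48 (43.8%) and in 37.5%. The shares of all genes were taken over every gene of the promoter table, with no limit to protein-coding or expressed genes. The motor genes are all protein-coding and most passed the filter on low counts, so the 2 sets are unlike. A higher share among motor genes is therefore not shown to be particular to them. These matches describe letters and show no binding. Kif5a (chr10:127225696-127263348, minus strand) and Dctn2 (chr10:127266368-127281950, plus strand) are neighbours in GENCODE M21, with their 5′ ends facing each other 3019 bp apart, yet Kif5a was lower and Dctn2 higher in number 1.

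Among the dynein-1 chains the intermediate chain Dync1i1, a neuronal subunit that joins the motor to dynactin, had 149, 143 and 123 CPM in number 1. In numbers 2 and 3 it kept to 74.6 to 82.1 CPM with a median of 76.4, a tight range well below (0.86 ± 0.09, adjusted p = 4.08e-06, edgeR). The second intermediate chain gene Dync1i2 rose by 0.64 on the log2 scale and the light intermediate chain gene Dync1li1 by 0.69. Dync1h1 had 134, 116 and 148 CPM in number 1 against 74.8 to 89.7 CPM with a median of 86.2, without overlap (0.67 ± 0.10, adjusted p = 4.16e-05, edgeR). The light intermediate chain gene Dync1li2, by contrast, had 486, 384 and 491 CPM in number 1 and 410 to 481 CPM elsewhere, overlapping ranges with a log2 difference of 0.05 that did not pass. So the pair of light intermediate chains, which link adaptors to the motor, did not share the call.

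The pair of LC8-type light chains moved in opposite directions. Dynll1 had 364, 454 and 299 CPM in number 1 and 172 to 238 CPM with a median of 202 elsewhere (0.86 ± 0.11, adjusted p = 1.93e-05, edgeR). Dynll2 had 230, 192 and 236 CPM in number 1 and 312 to 418 CPM with a median of 320 elsewhere (-0.62 ± 0.11, adjusted p = 0.000213, edgeR). For both genes the sets did not overlap. Dynll1 and Dynll2 proteins differ at few residues and also serve complexes other than dynein. Of the other light chains Dynlrb1 rose by 0.76 and Dynlt3 by 0.51 on the log2 scale. Dynein-2, the motor of return transport in cilia, was split, with its light intermediate chain gene Dync2li1 up by 0.65 and its heavy chain gene Dync2h1 at -0.62 ± 0.12 (adjusted p = 0.000459, edgeR).

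Of the kinesin-3 genes 5 of 6 fell. Kif1c, a broadly expressed vesicle motor, had 4.65, 3.83 and 6.32 CPM in number 1 and 12.9 to 22.6 CPM in numbers 2 and 3, the largest log2 difference among motor genes with at least 5 CPM on average (-1.82 ± 0.15, adjusted p = 3.07e-07, edgeR). Kif13a and Kif13b, motors of endosomes and membrane vesicles, fell by 1.31 and 1.37 on the log2 scale. The exception was Kif1a, the vesicle motor of axons, with 783, 650 and 995 CPM in number 1 and 759 to 890 CPM elsewhere. Its number 1 libraries lay on both sides of the rest, with a log2 difference of -0.04 that did not pass. With the trend on gene length removed, Kif1a was called higher in number 1, at 0.24 ± 0.08 (adjusted p = 0.0276, edgeR). Kif1b, which carries mitochondria and synaptic vesicle precursors, had 759, 535 and 930 CPM in number 1 and 820 to 1026 CPM elsewhere, overlapping sets with a small difference (-0.34 ± 0.12, adjusted p = 0.0214, edgeR). With the trend on gene length removed the Kif1b difference turned to 0.13, and the call was lost without saline replicate 1 (-0.36) or cocaine replicate 1 (-0.19).

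The remaining families showed few calls. Kif3a, a motor subunit of kinesin-2, had 521, 399 and 489 CPM in number 1 and 318 to 401 CPM with a median of 347 elsewhere, and rose by 0.45 on the log2 scale. Its partners Kif3b and Kif3c and the dendritic motor Kif17 differed by -0.07, 0.02 and 0.23, with none of the 3 passing; with the length trend removed Kif3c passed, at 0.21. Of the kinesin-4 genes Kif21b had 39.4, 24.7 and 57.3 CPM in number 1 and 77.1 to 92.5 CPM elsewhere and fell by 1.12. Its close relative Kif21a, at 617, 382 and 560 CPM in number 1 and 451 to 561 CPM elsewhere, did not pass. Kif2a, which takes tubulin off microtubule ends, differed by 0.22 without passing. Without cocaine replicate 1, Kif2a (0.36), Kif21a (0.28) and the ciliary kinesin Kif7 (-1.50) passed, and without cocaine replicate 2 Kif2a (0.28) and Kif6 (-0.70). Kif2a also passed with the length trend removed (0.35) and Kif7 with DESeq2 (-1.16). None of the 9 mitotic kinesins tested passed.

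**Figure D2:**
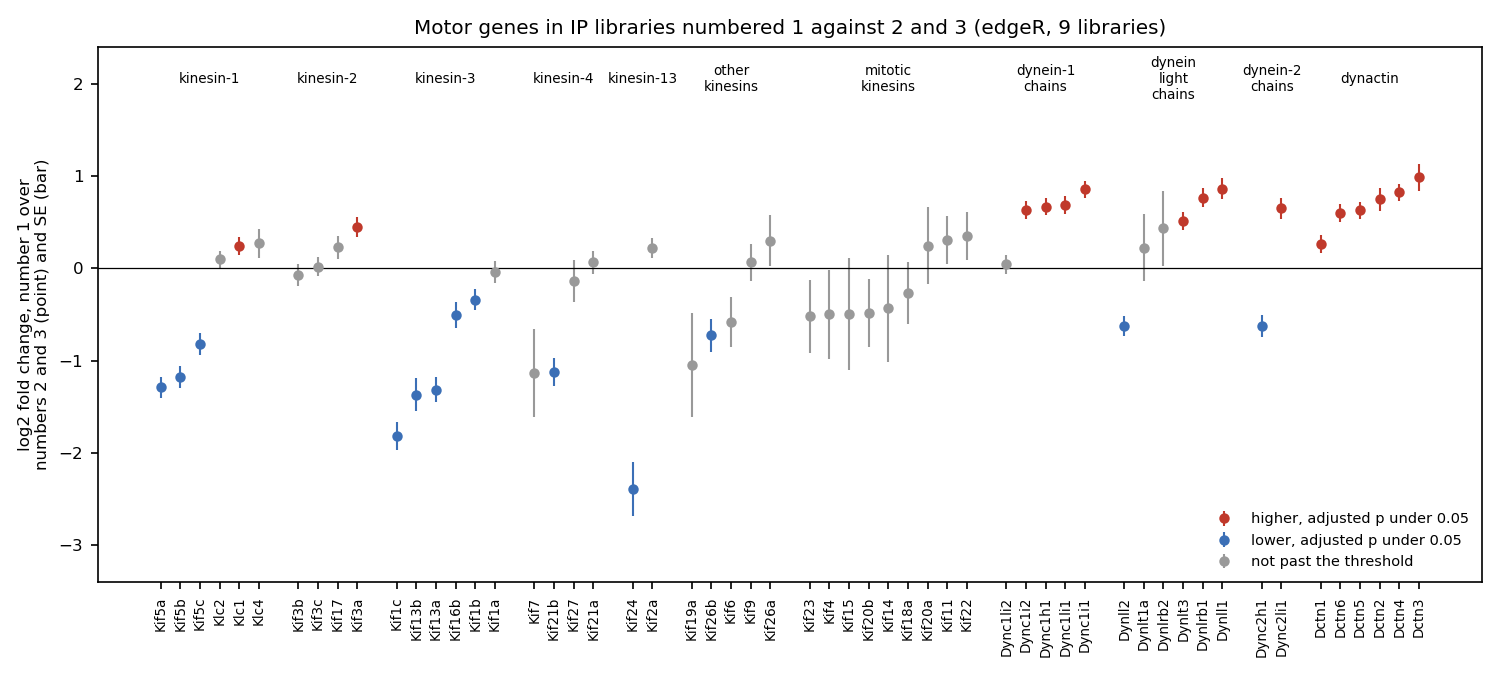
Log2 difference of the IP libraries numbered 1 from those numbered 2 and 3 (vertical axis) for the 55 motor genes tested, grouped by role, with the SE as a bar; genes higher (red) or lower (blue) at an adjusted p under 0.05 are coloured and the rest are grey. All 6 dynactin genes lie above 0 and all 3 kinesin-1 heavy chains below it, from -1.29 to -0.82.

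Libraries numbered 2 and 3 did not differ from each other in the same way. No gene of the 16417 tested was called between them with edgeR, and 320 genes (1.95%) had an unadjusted p under 0.05, 1 of them a motor gene. That gene was the mitotic kinesin Kif18a, at -1.09 ± 0.39 (unadjusted p = 0.0139, edgeR).

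Exonic length moved with the difference between replicate numbers. Across the 55 motor genes the log2 difference had a Pearson correlation of -0.46 and a Spearman correlation of -0.52 with log2 length, longer genes being lower in number 1. Over 15008 genes with a length the values were -0.21 and -0.34; genes are not independent replicates, and the points share the same libraries. Several motor genes lay off this trend. Dync1h1 (15658 bp of exons) and Dctn4 (11591 bp) are long and were higher, and Dynll2 (2736 bp) is short and was lower. With the trend removed, 23 of the 29 calls were kept in the same direction, among them all 6 dynactin genes and all 3 kinesin-1 heavy chains. The 6 lost were Dync2h1, Dynlrb1, Kif16b, Kif1b, Kif26b and Klc1, and 3 were gained, Kif1a, Kif2a and Kif3c, all higher in number 1.

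**Figure D3:**
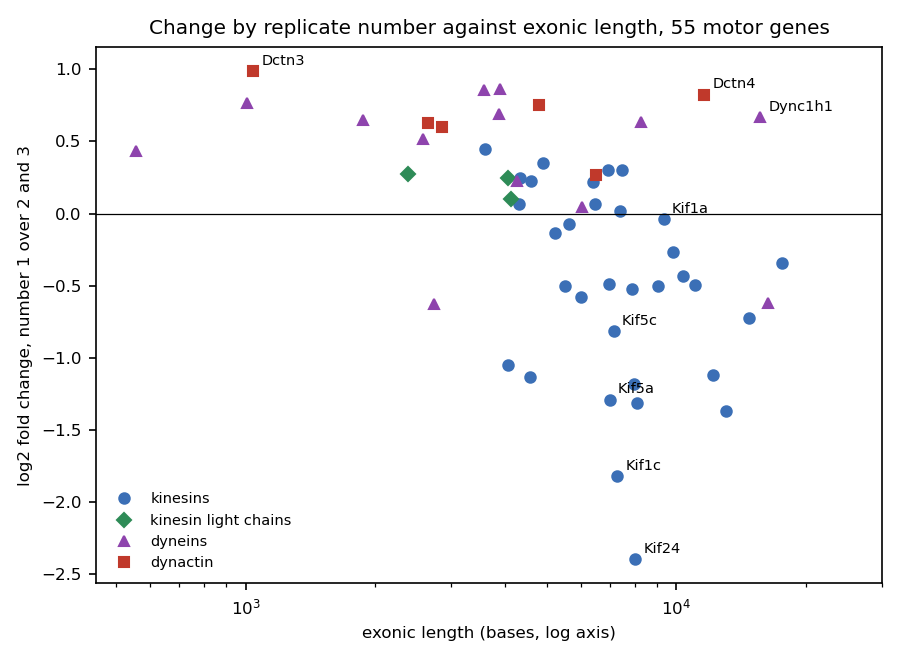
Log2 difference of the IP libraries numbered 1 from those numbered 2 and 3 for the 55 motor genes tested against exonic gene length in bases on a log axis, with kinesins, kinesin light chains, dyneins and dynactin as separate symbols. The Spearman correlation is -0.52, and Dync1h1 at 15658 bp lies above 0.

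Markers of cell types and of nuclear RNA also moved with replicate number, where 27.6% of all genes tested were higher in number 1 and 27.7% lower. Of the 14 markers of layer 5 pyramidal tract neurons 12 were higher in number 1 and none lower, and their summed level was 1376 to 1600 CPM there and 761 to 968 CPM in numbers 2 and 3. Of 12 astrocyte markers 1 was higher and 9 lower (1068 to 1485 against 2479 to 3033 CPM), and of 12 oligodendrocyte markers 10 were lower (635 to 803 against 1462 to 1997 CPM). Of 12 microglia markers 7 were lower (20.8 to 35.1 against 37.4 to 54.8 CPM), and of 8 markers of oligodendrocyte precursors 1 was higher and 7 lower (38.2 to 52.3 against 89.9 to 120 CPM). Of 16 interneuron markers 3 were higher and 12 lower, while the ranges of their sums overlapped (1004 to 1381 against 1018 to 1305 CPM), and of 16 markers of striatal projection neurons 1 was higher and 10 lower (706 to 841 against 1114 to 1322 CPM). Endothelial and mural markers went the other way, with 6 higher and 3 lower of 12 and a median of 0.48, while their sums overlapped (28.0 to 38.7 against 29.0 to 38.5 CPM). All 8 nuclear noncoding RNAs listed were lower (223 to 442 against 2506 to 7382 CPM). No marker of these lists was at 0 in any IP library. The part of these differences in the motor gene results was not tested.

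Other genes of the transport machinery were read from lists. Their counts by replicate number stand beside 27.6% higher and 27.7% lower among all genes tested. All lists and roles were chosen with earlier results of these data known. Of the 6 dynactin subunits outside the symbol rule, which form its actin-like filament and caps, 5 rose, among them Capzb by 0.42 and Actr10 by 0.32 on the log2 scale, so 11 of 12 dynactin genes measured were called higher and none lower. Of 26 genes of intraflagellar transport, the cargo trains of cilia, 17 rose and none fell, with a median of 0.42; Ift20 rose by 0.83. Of 53 tubulins and microtubule-associated proteins 22 rose and 9 fell, with Tuba1a up by 1.03 and Map1b by 0.44. Motor adaptors and regulators were split, with 11 up and 20 down of 48 and a median of 0.00. Among these the dynein regulator Pafah1b1 (Lis1) stood at -0.32, the kinesin-1 adaptor Clstn1 at 0.66 and the kinesin-2 subunit Kifap3 at 0.76. Of 17 myosins, the motors of actin filaments, none rose and 5 fell, with a median of -0.17. The share of myosins that fell was close to that of all genes. Of 15 axonemal dynein genes 1 rose and 3 fell, and of 5 kinesins outside the rule 1 fell, Kifc2 by 0.36. Neither list was above the share of all genes in either direction.

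No motor gene was called between treatments. With edgeR and with DESeq2, 0 of 16417 genes passed an adjusted p of 0.05 (0% of all genes) in any of 3 contrasts: cocaine with saline and with yoked as the reference, and yoked with saline as the reference. At an unadjusted p under 0.05, edgeR counted 168 genes (1.02%) in cocaine against saline, 66 (0.402%) in yoked against saline and 182 (1.11%) in cocaine against yoked, with 0 motor genes in each. Cocaine against saline and cocaine against yoked share the cocaine libraries, so their values are given side by side and not as independent results.

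Kif5c had 1229, 2038 and 2066 CPM in saline, 785, 1782 and 1644 in cocaine and 1331, 1929 and 2256 in yoked libraries. The cocaine library was the lowest of each replicate number, yet the treatments overlapped, since each holds a low library numbered 1. The log2 difference was -0.33 ± 0.34 from saline and -0.39 ± 0.34 from yoked (SE, edgeR). Kif5a differed by -0.30 ± 0.49 and -0.40 ± 0.49 and Kif5b by -0.29 ± 0.46 and -0.41 ± 0.46 in the same order. Klc1 differed by 0.07 ± 0.17 and 0.12 ± 0.17. Cocaine was lowest within each replicate number for Kif5a and Kif5b too, and with number as a block the differences were -0.30 ± 0.12, -0.32 ± 0.13 and -0.37 ± 0.13 from saline for Kif5a, Kif5b and Kif5c and -0.43 ± 0.12, -0.42 ± 0.13 and -0.44 ± 0.13 from yoked. None passed, at adjusted p from 0.377 to 0.378 and from 0.134 to 0.147 (edgeR). Without cocaine replicate 1, and with no block, the differences from saline turned to 0.029 for Kif5a and 0.027 for Kif5b; leaving it out keeps the low libraries numbered 1 of the other treatments.

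Dctn3 had 250, 130 and 163 CPM in saline, 413, 145 and 151 in cocaine and 194, 143 and 112 in yoked libraries. Replicate 1 was the highest of each treatment and cocaine replicate 1 the highest of all, and Dctn3 differed by 0.41 ± 0.45 from saline and 0.67 ± 0.45 from yoked. Within replicate numbers 1, 2 and 3 the cocaine to saline difference of Dctn3 was 0.76, 0.17 and -0.11. Without cocaine replicate 1 it turned to -0.29, and from yoked to -0.02. Dctn2 differed by 0.45 ± 0.35 from saline and 0.51 ± 0.35 from yoked, and without cocaine replicate 1 by -0.05 and 0.004.

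By role, 26 of 33 Kif genes lay below saline in cocaine (median -0.18, against 0.03 over all genes). Against yoked 29 of 33 lay below (median -0.24, against 0.01 over all genes), while all 6 dynactin genes lay above both. Of all 16417 genes, 7646 lay below saline and 8771 above, and 7969 lay below yoked and 8448 above. Without cocaine replicate 1 the counts of Kif genes below became 16 and 22 of 33. With all libraries numbered 1 left out they were 25 and 23, with the replicate block 25 and 29, and with the length trend removed 25 and 29. Medians of the Kif genes against saline and yoked were 0.0040 and -0.068 without cocaine replicate 1, and -0.066 and -0.16 without number 1. They were -0.21 and -0.23 with the block, and -0.11 and -0.11 with the length trend removed. Motor gene length correlated with the cocaine difference as it did with replicate number, at a Spearman correlation of -0.40 against saline and -0.54 against yoked over 55 genes. Over the 15008 genes with a length it was -0.40 and -0.43. Of the layer 5 markers 13 of 14 lay below saline and all 12 oligodendrocyte markers above it, none called, and the part of these in the motor gene values was not tested.

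Complete separation of libraries between treatments was rare. No motor gene had all 3 cocaine libraries above or below saline, where 3.11% and 2.28% of all genes did. Kif1b had 535, 902 and 820 CPM in cocaine and 930, 994 and 1026 in yoked libraries, all cocaine libraries below all yoked ones (-0.38 ± 0.21). It was 1 of 2 such genes with Kif9, a kinesin of motile cilia, and Kif20b, a mitotic kinesin at 0.34 to 1.16 CPM in the IP libraries, was the 1 gene above, where 2.55% of all genes were below and 3.08% above. In yoked against saline Kif20b was the 1 gene below (-0.84 ± 0.40) and none was above, against 2.15% and 2.14% of all genes. The other genes with the smallest unadjusted p were Kif19a (-1.03 ± 0.65, at 0.12 to 0.71 CPM), Kif26a (-0.48 ± 0.32) and Kif9 (-0.34 ± 0.24) in cocaine against saline, and Kif22 (0.40 ± 0.32) and Kif21a (-0.18 ± 0.18) in yoked against saline.

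**Figure D4:**
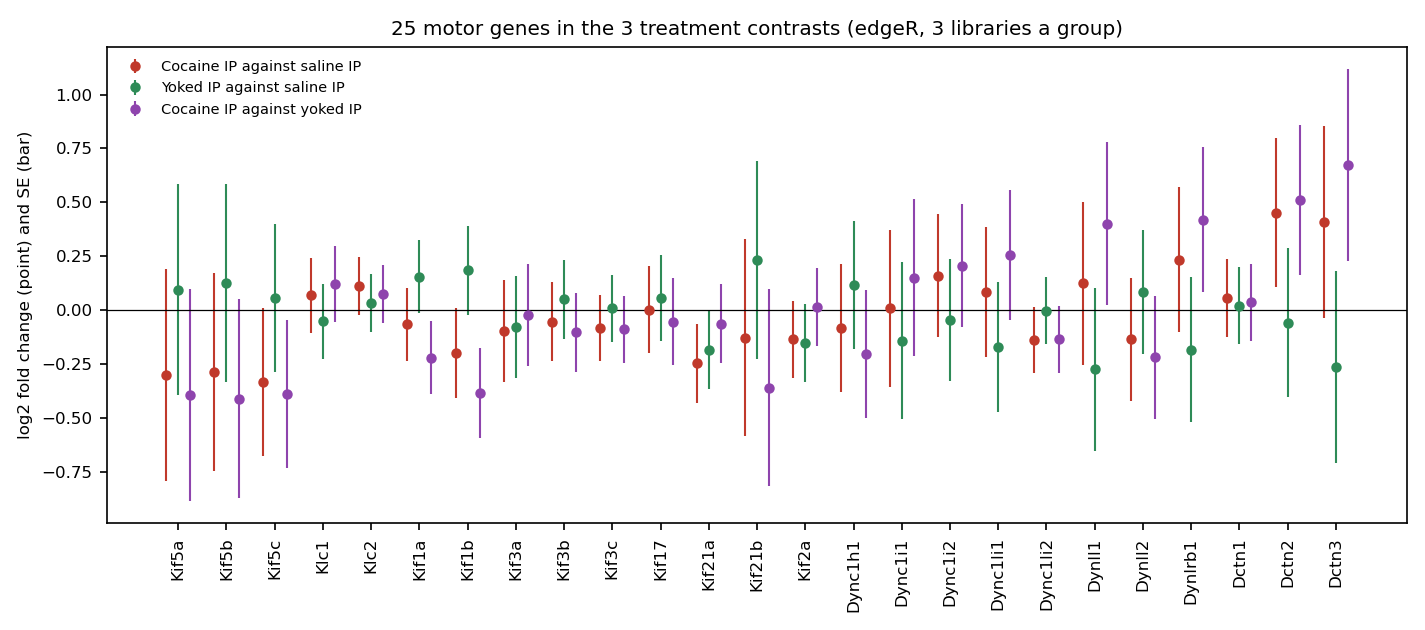
Log2 fold changes of 25 motor genes in the 3 treatment contrasts among IP libraries (3 libraries a group), with the SE as a bar. None passed an adjusted p of 0.05; Kif5a lies at -0.30 ± 0.49 in cocaine against saline.

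The input comparison asks which RNAs were richer on tagged ribosomes than in the whole tissue. The 14 layer 5 markers had median log2 ratios to the input of 1.01, -8.02e-05 and 0.26 in saline IP replicates 1, 2 and 3. For 12 astrocyte markers the medians were -1.22, -0.09 and -0.27, and for 11 endothelial and mural markers 0.86, 0.46 and 0.27. Layer 5 markers were thus above the input mainly in replicate 1, and no marker of these lists was past 2-fold in all 3 libraries. Each saline IP library was divided by the 1 input library, and no motor gene of 46 at 1 CPM or more on average was at least 2-fold higher or lower in all 3 (0.0742% and 0.0445% of all genes were). In all 3 libraries 11 were above the input and 6 below, by any amount (18.9% and 17.6% of all genes). Nearly all of the departure was in replicate 1, where Dync1i1 was at least 2-fold higher and Kif5a, Kif1c, Kif13a, Kif13b, Kif21b and Kif24 at least 2-fold lower (2.75% and 11.3% of all genes). In replicate 2 Kif20a alone was past 2-fold, downward, and in replicate 3 none (0.460% up and 0.260% down of all genes in replicate 2, 0.512% and 0.631% in replicate 3). The SD of the log2 ratio over the 46 genes was 0.720 in replicate 1 and 0.353 and 0.281 in replicates 2 and 3. Dync1i1, for example, had log2 ratios of 1.05, 0.09 and 0.07 in replicates 1, 2 and 3, and Kif5a -1.21, 0.13 and 0.18. Kif21a, a kinesin-4 that restrains microtubule growth, was more even, at 0.49, 0.34 and 0.17. The highest means after Dync1i1 were those of Dynlt3 (0.35 ± 0.32, SD, n = 3) and Dctn6 (0.34 ± 0.29), and the lowest were Kif1c (-0.58 ± 1.06), Kif21b (-0.53 ± 0.62), Kif13b (-0.38 ± 0.86) and Kif27 (-0.35 ± 0.18).

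Against the 1 unbound library, again no motor gene of 46 passed 2-fold in all 3 cocaine IP libraries (0.399% of all genes did upward and 2.21% downward). In all 3 libraries 18 were above and 11 below by any amount (31.8% and 25.7% of all genes). Past 2-fold, 8 were higher and 6 lower in replicate 1 (16.3% and 16.7% of all genes), 1 higher and 2 lower in replicate 2 (2.91% and 4.01%), and 1 higher and 1 lower in replicate 3 (2.28% and 5.34%). The 3 kinesin-1 light chain genes measured were above the unbound library in every cocaine IP library. They were not above the input in the same way. In saline IP replicates 1, 2 and 3 the log2 ratios to the input were -0.06, -0.19 and -0.15 for Klc2, -0.20, -0.29 and -0.16 for Klc4, and 0.19, -0.18 and 0.01 for Klc1. Klc2 had 137, 131 and 141 CPM in the cocaine IP libraries and 68.9 CPM in the unbound one (95% Poisson interval 65.3 to 72.7, counting error only), log2 ratios of 1.03, 0.94 and 1.04. These were the most even of the ratios named here, with an SD of 0.06 (n = 3). Klc1 had 660, 542 and 634 CPM against 326 CPM (319 to 334), ratios of 1.06, 0.75 and 0.97. Klc1 was at 506 to 660 CPM in the other 10 libraries, input included, so the unbound library was the one that stood apart. Dctn1 had ratios of 0.95, 0.71 and 0.93. Dctn3 and Dctn2 had higher or similar means, 1.09 ± 0.87 and 1.01 ± 0.68, that rested on replicate 1 (2.09 and 1.79).

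Dync1h1 went the other way, with 116, 74.8 and 89.7 CPM in the cocaine IP libraries and 199 CPM (192 to 205) in the unbound one, log2 ratios of -0.73, -1.39 and -1.14. All other 10 libraries lay between 74.8 and 148 CPM. The dynein heavy chain was thus lower in IP than in unbound RNA while the library numbered 1 held more of it than numbers 2 and 3. Dync1i2 was lower as well (-0.51 ± 0.30), and Kif1c (-1.14 ± 1.12), Kif13a (-0.56 ± 0.83) and Kif5c (-1.21, -0.06 and -0.18) mainly in replicate 1. With the length trend removed, the ratios were 0.04, -1.39 and -1.09 for Dync1h1 and 0.18, -0.80 and -0.68 for Dync1i2, so that replicate 1 no longer lay below. Dync1h1 was not below the input, with log2 ratios of 0.75, 0.01 and 0.08 in saline IP replicates 1, 2 and 3. Kif21a and Dynlt3, also above the input in all 3, were below the unbound library in all 3 cocaine IP libraries. Their ratios to it were -0.63, -0.31 and -0.17, and -0.02, -0.53 and -0.73. Dctn6 was above both fractions. A test with edgeR over all 11 libraries takes its spread from the replicated IP groups, since the unbound and the input arm hold 1 library each. It called no motor gene against the unbound library, with Klc2 lowest at an adjusted p of 0.186, and 10 of 18070 genes in all (0.0553%). At an unadjusted p under 0.05 it counted 5 of 57 motor genes against 10.3% of all genes. Against the input it called no gene (0%), and at an unadjusted p under 0.05 it counted 0 motor genes and 0.587% of all genes.

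The unbound library differed from the rest in other ways. Reads that fell on more than 1 gene made up 7.34% of its entries and 1.56% to 1.91% in the other 10 libraries. Exons of 19 of the 62 motor genes overlap those of another gene, Klc1, Klc2 and Dync1h1 among them, and the sources used here do not state whether counting used the strand. Markers moved in the same comparison. In all 3 cocaine IP libraries 8 of 13 layer 5 markers were above the unbound library and 1 below (summed level 769 to 1376 CPM in the IP libraries, 808 in the unbound one). Of 16 interneuron markers 12 were below in all 3 (1067 to 1381 against 1546 CPM), of 12 oligodendrocyte markers 9 (744 to 1997 against 2626 CPM) and of 8 nuclear noncoding RNAs 6 (223 to 5446 against 15853 CPM). Of 16 markers of striatal projection neurons 10 were below and 0 above in all 3. Other lists were more mixed: of 12 astrocyte markers 4 were below and 2 above, and of 12 microglia markers 5 were below and 2 above. Among all genes 25.7% were below and 31.8% above in all 3. The part of these reads and markers in the ratios to the unbound library was not tested.

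**Figure D5:**
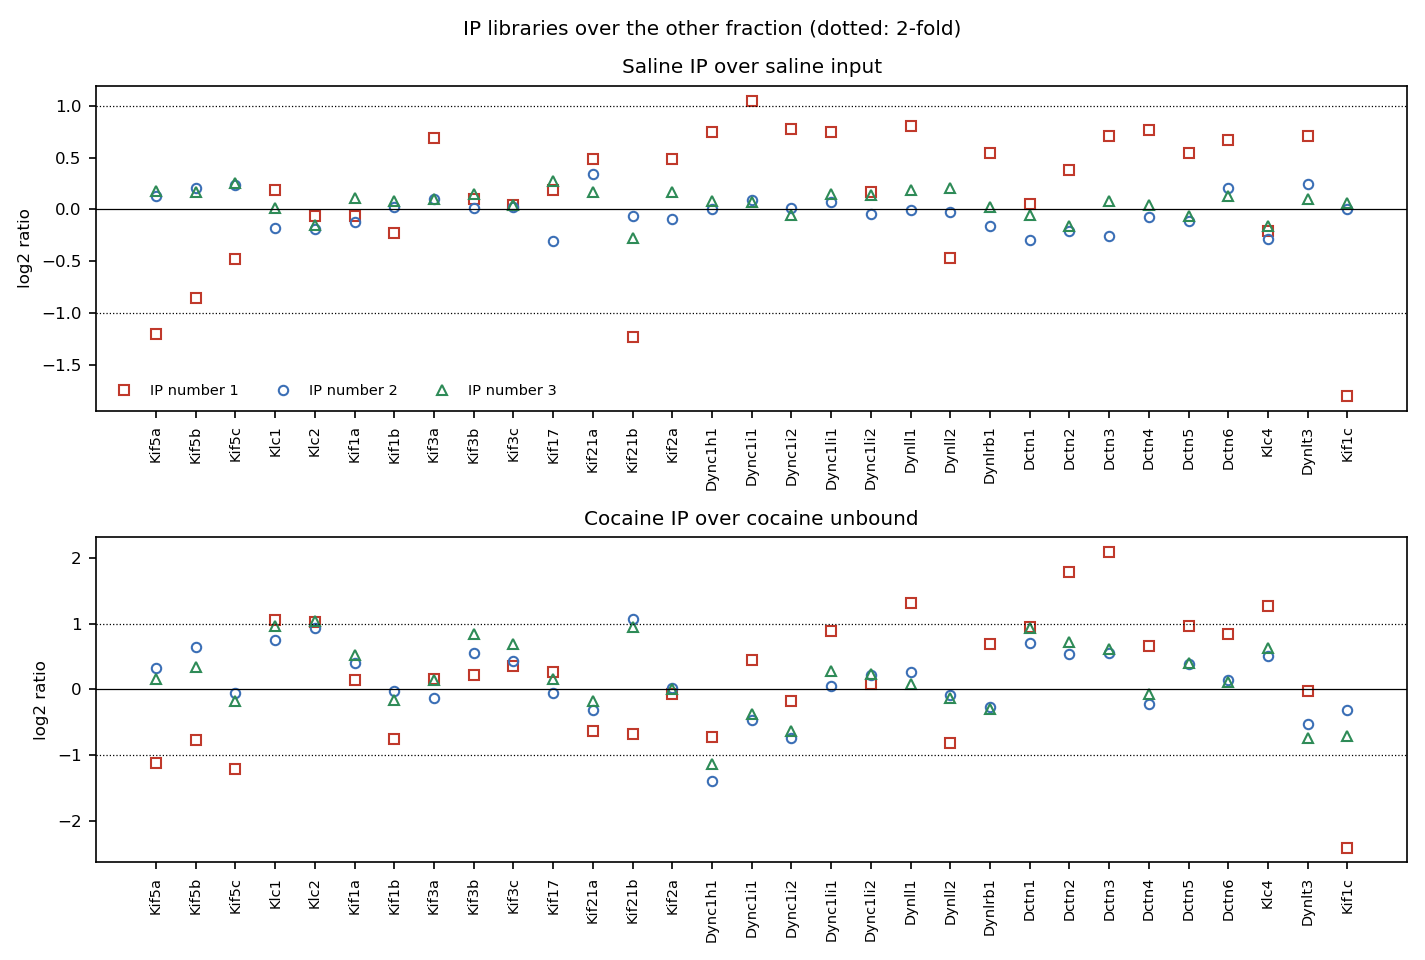
Log2 ratio of each saline IP library to the input and of each cocaine IP library to the unbound library for motor genes with known roles in transport and other named ones, with 1 point per replicate number and 2-fold marked by dotted lines. Against the unbound library the 3 points of Klc2 lie between 0.94 and 1.04 and those of Dync1h1 between -1.39 and -0.73.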

How the data were processed

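Each library has 1 deposited file of raw counts by gene symbol. The authors used STAR 2.0.0e, the mm10 build and HTSeq, per the submitters' processing notes; annotation, strand setting and the HTSeq version: not given in the sources used here. Entries that name no gene stayed out of library sizes; reads aligned to several places were 28.3% to 47.0% of entries. The motor genes and all lists were chosen with earlier results of these data known. Replicate numbers, groups and lanes come from the labels.

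The 9 IP libraries were fitted in edgeR 4.0.16 (R 4.3.3, limma 3.58.1) with TMM scaling, filterByExpr and robust quasi-likelihood tests, as 3 group means for the treatments and as treatment plus number for the numbers, with Benjamini-Hochberg adjustment over 16417 genes and a threshold of 0.05. An exact rank test between treatments was not used, since p = 0.1 is the smallest it allows. Levels in CPM were TMM-scaled over all 11 libraries, while separation of libraries was counted in CPM scaled over the 9 IP libraries. RPKM used GENCODE M21 exonic lengths. Fraction ratios used TMM over 4 libraries, a prior count of 2 and genes at 1 CPM or more on average, and were called where all 3 passed 2-fold, with no p. The scripts were tested on simulated data. Counts carry no molecular identifiers, so intervals cover counting error only.

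Deviations from the group means correlated at 0.48 to 0.86 between libraries of the same number and at -0.80 to 0.70 between different numbers. All negative values involved a library numbered 1. Between numbers 2 and 3 the values were 0.43 to 0.70, and within number 3 they were 0.48 to 0.56. The libraries numbered 1 thus stood apart. Deviations within a treatment sum to 0, so a departure of number 1 pushes numbers 2 and 3 to the same side. These correlations therefore cannot tell whether numbers 2 and 3 are separate sets. Named genes were 25 main transport motors, the 3 genes with the smallest p in each treatment contrast, the 6 largest rises and falls by number at 5 CPM or more, the 4 highest and lowest fraction ratios, and the 6 most abundant per length; further members were named after their values were seen, to complete a role. Alternatives were DESeq2 1.42.0, RLE size factors, no filter, Rn45s left out, the length trend removed, a replicate block, each library left out, and for fractions another prior count (0.5), filter, scaling and a test over all 11 libraries. Promoters came from RefSeq (48 of 62 genes matched).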

Additional observations from a re-analysis of the deposited data

How the results depend on the processing

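At 20926712 to 53862653 gene counts per library, depth limits mainly genes with few counts, such as Kif19a and Kif20b. No treatment contrast gave a call among the motor genes under any alternative. With the replicate block the lowest adjusted p was 0.377 in cocaine against saline (Dctn2, 0.38 ± 0.15) and 0.134 in cocaine against yoked (Kif5a, -0.43 ± 0.12, edgeR), and the block changed no call. Over 17 alternatives 17 of 55 genes kept their sign throughout in cocaine against saline, 24 in cocaine against yoked and 11 in yoked against saline. Of the 29 calls by replicate number, 28 were kept with DESeq2, 27 with RLE size factors, 28 without the filter, 29 without Rn45s, 23 with the length trend removed and 26 to 28 with 1 library left out, and none was called in the opposite direction; Klc1 and Dctn1 were those most often lost.

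Directions turned as follows. By replicate number, Kif3c was at -0.0051 with DESeq2 and with RLE size factors, and with the length trend removed Kif1a was at 0.24, now called, and Kif1b at 0.13. With 1 library left out at a time, Kif1a ran from -0.18 to 0.094, Kif3b from -0.22 to 0.12, Kif3c from -0.092 to 0.12, Kif21a from -0.063 to 0.28 and Dync1li2 from -0.010 to 0.14. Likewise in cocaine against saline Kif5a ran from -0.63 to 0.029, Kif5b from -0.61 to 0.027, Klc1 from -0.052 to 0.16, Dctn2 from -0.053 to 0.67 and Dctn3 from -0.29 to 0.72, and in cocaine against yoked Dctn3 from -0.024 to 0.92. The values that crossed 0 for Kif5a, Kif5b, Dctn2 and Dctn3 were those without cocaine replicate 1. The number of motor genes past 2-fold against the unbound library ran from 0 to 3 upward and from 0 to 1 downward when 1 IP library was left out, since 2 ratios then had to pass instead of 3.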

Other observations

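Among the roles, kinesin-1 heavy chains had the lowest median log2 difference by replicate number (-1.18) and dynactin the highest (0.69). Their sums are set against each other here, a comparison not planned in advance. The summed level of Kif5a, Kif5b and Kif5c was 20.3%, 15.8% and 22.1% of the summed CPM of all motor genes in replicate 1 of saline, cocaine and yoked IP; in numbers 2 and 3 it was 31.0% to 39.6%. The input had 34.1% and the unbound library 32.6%, both within the second range. The ratio of the heavy chain sum to the dynactin sum was 1.83, 0.956 and 2.20 in number 1 and 3.96 to 6.90 in numbers 2 and 3, against 4.60 in input RNA and 5.21 in unbound RNA. The sums are not corrected for length, so the ratio compares libraries and not amounts of the complexes. Kif24, a centriolar kinesin left out of the named genes for its low level, had the largest fall by replicate number, -2.39 ± 0.29, at means of 0.56 and 2.89 CPM (adjusted p = 1.01e-05, edgeR).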
